A study of Mus musculus with 6 samples.

Results

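Crlf2 and 7 other cytokine receptor genes, Il6ra, Il10ra, Ifngr1, Tgfbr1, Tgfbr2, Tnfrsf1a and Tnfrsf1b, were followed across immune cells of the mouse hippocampus in 6 single-cell libraries. The 8 genes were taken by name from 32429 genes in each count table. They had been chosen by their levels and shares of positive cells in these libraries, so those levels are a description and carry no test. Microglia, the resident macrophages of the brain, were the cells in which all 8 could be measured in every library.

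Mice of the strain spelled BC57BL/6 in the labels went through learned helplessness, a paradigm in which inescapable foot shocks are followed by a test of escape. Helpless and non-helpless mice of the acute paradigm received 180 shocks of 0.3 mA that could not be escaped, and were then tested in 30 trials of 24 s. Non-recovered, recovered and non-helpless mice of the chronic paradigm had the acute procedure and then weekly retests for 3 weeks, where recovery means that a helpless mouse had ceased to be helpless. Non-shocked mice were the controls. Sorted live CD45+ cells of the perfused hippocampus, without meninges and choroid plexus, were profiled by droplet 5' sequencing, which counts unique molecular identifiers (UMIs), 1 per captured transcript. The number, age and sex of the mice behind a library are not given in the sources used here. There was 1 library per group, hence no spread between replicates and no test between groups, and every interval below is a 95% interval of counting error only.

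In all, 14097425 UMIs were counted in 3005 cells, at a median of 4135 per cell. The authors' cell types gave 2721 microglia, from 99 in the chronic non-recovered library to 630 in the acute helpless library. All 9 microglial marker genes looked up were detected in each library, at a summed level between 32945 CPM in chronic non-recovered and 42968 CPM in chronic non-helpless microglia. CPM is the usual scaled count, here the UMIs of a gene relative to all UMIs of the same cells. By the authors' batch numbers the acute helpless library was alone in batch 1, the acute non-helpless one was in batch 2 and all chronic ones were in batch 3, while non-shocked cells came from batch 2 and batch 3. Group and batch of the acute helpless library therefore cannot be told apart. The non-shocked microglia of batch 2 were 123 shallow cells with a median of 905 UMIs, 65.0% of them with under 2.5% of UMIs from ribosomal protein genes, against 429 cells, 3906 UMIs and 33.8% in batch 3. The chronic non-recovered microglia were also few, with a median of 2497 UMIs, and 53.5% of them were that poor in ribosomal protein UMIs. Between libraries 5 barcode sequences were shared.

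Crlf2, Il6ra, Il10ra and Ifngr1 encode chains of class I or class II cytokine receptors, which bind a ligand together with a partner chain and signal through JAK kinases and STAT transcription factors. Tgfbr1 and Tgfbr2 encode the serine/threonine kinase receptor for TGF-beta, which signals through SMAD proteins and is known in microglia for keeping their homeostatic state. Tnfrsf1a and Tnfrsf1b encode the receptors for tumour necrosis factor (TNF), each of which binds the ligand and signals without a partner chain, through adaptor proteins and NF-kB.

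Crlf2 and Il6ra had the widest ranges over libraries, so the 250 bases before their annotated starts are shown, on the strand of the gene. They were credited to RefSeq with the build GRCm38.p6, at chr5:109558994-109559243, minus strand, for Crlf2 and chr3:89913197-89913446, minus strand, for Il6ra. Capitals mark matches to GGAAGT, letters found in binding sites of the myeloid factor PU.1, on either strand.
Crlf2: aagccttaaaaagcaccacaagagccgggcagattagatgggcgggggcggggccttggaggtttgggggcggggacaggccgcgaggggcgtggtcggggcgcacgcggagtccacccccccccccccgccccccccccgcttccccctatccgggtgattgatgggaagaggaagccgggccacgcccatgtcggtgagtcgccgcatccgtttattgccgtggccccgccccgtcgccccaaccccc
Il6ra: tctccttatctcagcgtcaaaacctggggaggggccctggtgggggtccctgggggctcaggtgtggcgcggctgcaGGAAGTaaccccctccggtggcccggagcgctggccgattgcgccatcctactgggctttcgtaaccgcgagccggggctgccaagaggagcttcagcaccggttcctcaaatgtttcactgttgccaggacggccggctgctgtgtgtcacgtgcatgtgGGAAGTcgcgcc
The Il6ra stretch held 2 matches to GGAAGT and the Crlf2 stretch held 0, and 19.7% of 32851 promoters of that length held at least 1. Neither stretch held TGACTCA, TTCNNNGAA (which reads the same on both strands) or TATAAA, which 4.46%, 7.02% and 12.4% of promoters held. GC content was 71.6% for Crlf2 and 65.2% for Il6ra, beside a median of 52.4% over all promoters. These matches are letters in a window and no sign of binding. A promoter was found for 7 of the 8 genes.

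Crlf2 lies on chromosome 5 at 109554709 to 109558993 on the minus strand (mm10, GENCODE M21). It encodes the chain of the receptor for TSLP, a cytokine of epithelial and stromal cells, and signals as a pair with the interleukin 7 receptor chain encoded by Il7r. In the acute paradigm Crlf2 had 103 CPM (90.8 to 115) in helpless microglia and 11.9 CPM (7.85 to 17.3) in non-helpless microglia. In the chronic paradigm it had 19.7 CPM (7.24 to 43.0) in non-recovered, 88.6 CPM (75.1 to 104) in recovered and 105 CPM (91.3 to 119) in non-helpless microglia. Non-shocked microglia had 5.73 CPM (0.145 to 31.9) in batch 2 and 78.3 CPM (65.5 to 92.8) in batch 3. The levels therefore lay at 78.3 CPM or more in acute helpless, chronic recovered, chronic non-helpless and batch 3 non-shocked microglia and at 19.7 CPM or less in the other 3, with no overlap of intervals between these sets. Within either set the neighbours in the order had overlapping intervals.

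The lower levels rested on few UMIs. Crlf2 had 278 UMIs in acute helpless and 27 in acute non-helpless microglia, and it had 6 in chronic non-recovered, 153 in recovered and 223 in chronic non-helpless microglia. Non-shocked microglia had 1 UMI in batch 2 and 133 in batch 3. A cell held at most 9 Crlf2 UMIs, in the acute helpless library, and at most 2 in the acute non-helpless library. At least 1 UMI was found in 27.6% (24.2 to 31.3) of acute helpless and 4.04% (2.58 to 6.00) of acute non-helpless microglia. The share was 5.05% (1.66 to 11.4) in chronic non-recovered, 27.2% (22.7 to 32.0) in recovered and 29.9% (25.9 to 34.1) in chronic non-helpless microglia, and 0.813% (0.0206 to 4.45) in batch 2 and 21.9% (18.1 to 26.1) in batch 3 of the non-shocked library. Cd3e, a T cell gene that microglia should lack, had a UMI in 0.317% of acute helpless, 1.23% of acute non-helpless, 2.02% of chronic non-recovered and 0.466% of batch 3 non-shocked microglia, and in 0 of the other microglia. The Crlf2 share of chronic non-recovered microglia and that of Cd3e there (0.246 to 7.11) had overlapping intervals, as had those of Crlf2 and Cd3e (0 to 2.95) in batch 2 non-shocked microglia. In neither was the Crlf2 share thus set apart from that of Cd3e. Few cells were positive, and Cd3e is no measure of free Crlf2 RNA, so the part of free RNA was not tested.

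As ratios, Crlf2 was 8.61-fold higher (5.79 to 13.3) in acute helpless than in acute non-helpless microglia. It was 4.49-fold lower (2.02 to 12.4) in chronic non-recovered than in recovered microglia and 5.30-fold lower (2.40 to 14.6) than in chronic non-helpless microglia. Against non-shocked microglia of the same batch, Crlf2 was 3.97-fold lower (1.77 to 11.0) in chronic non-recovered microglia, while recovered and chronic non-helpless microglia stood at 1.13-fold (0.891 to 1.44) and 1.34-fold (1.07 to 1.67). Acute helpless microglia were 1.43-fold (1.16 to 1.77) above all non-shocked microglia, and acute non-helpless microglia 2.08-fold (0.342 to 85.1) above those of batch 2, from 27 UMIs against 1, and below them in cells thinned to 1000 UMIs, at 8.90 CPM against 17.9 CPM from 5 UMIs and 1. Within the non-shocked group, batch 2 was 13.7-fold (2.41 to 543) below batch 3, from 1 UMI and a larger ratio than any of those between groups. Helpless and non-helpless mice thus differed in opposite directions in the acute and the chronic paradigm, and that difference was not tested.

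Foreign RNA was looked up beside the Crlf2 levels. Neutrophil markers were at 0 in acute helpless and acute non-helpless microglia and at 17.2 CPM in batch 2 non-shocked microglia, so they did not follow Crlf2 over the libraries. The chronic non-recovered microglia held neutrophil marker RNA at a summed 22472 CPM, with 6 of 7 markers detected and Retnlg at 0, against 4.63 CPM in recovered, 981 CPM in chronic non-helpless and 8.83 CPM in batch 3 non-shocked microglia. Most of it came from 1 barcode with 6790 neutrophil UMIs and no Crlf2 UMI. Without the 2 non-recovered microglia and the 1 chronic non-helpless cell in which at least 1% of UMIs were such RNA, the log2 ratios of Crlf2 in non-recovered microglia were -2.08 to recovered, -2.32 to chronic non-helpless and -1.90 to non-shocked microglia, against -2.17, -2.41 and -1.99 with them. Summed T cell markers stood at 45.0 CPM (102 UMIs) in acute non-helpless, 34.4 CPM (6 UMIs) in batch 2 non-shocked and 13.2 CPM (4 UMIs) in chronic non-recovered microglia. These were the 3 with low Crlf2, and the others had 4.43 CPM or less. All 7 of these markers had UMIs in acute non-helpless microglia, against 4 in batch 2 non-shocked and 2 in chronic non-recovered microglia. Summed B cell markers went the other way. They stood at 56.9 CPM in acute non-helpless, 45.9 CPM in batch 2 non-shocked and 29.6 CPM in chronic non-recovered microglia, against 61.8 to 143 CPM in the others. The part of lymphocyte RNA in the Crlf2 levels was not tested. Dlgap1, a gene on chromosome 17, was detected in 49.7% of acute non-helpless, 28.3% of chronic non-recovered and 22.8% of batch 2 non-shocked microglia, against 8.60% of recovered microglia and 0% of acute helpless, chronic non-helpless and batch 3 non-shocked microglia. The labels give 1 strain for all groups, and they do not say whether all mice had the same genetic background. A difference in background was not tested, and with 1 library per group it cannot be told apart from the group in any of the Crlf2 ratios between groups. Between the non-shocked batches it cannot be told apart from the batch.

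**Figure D1:**
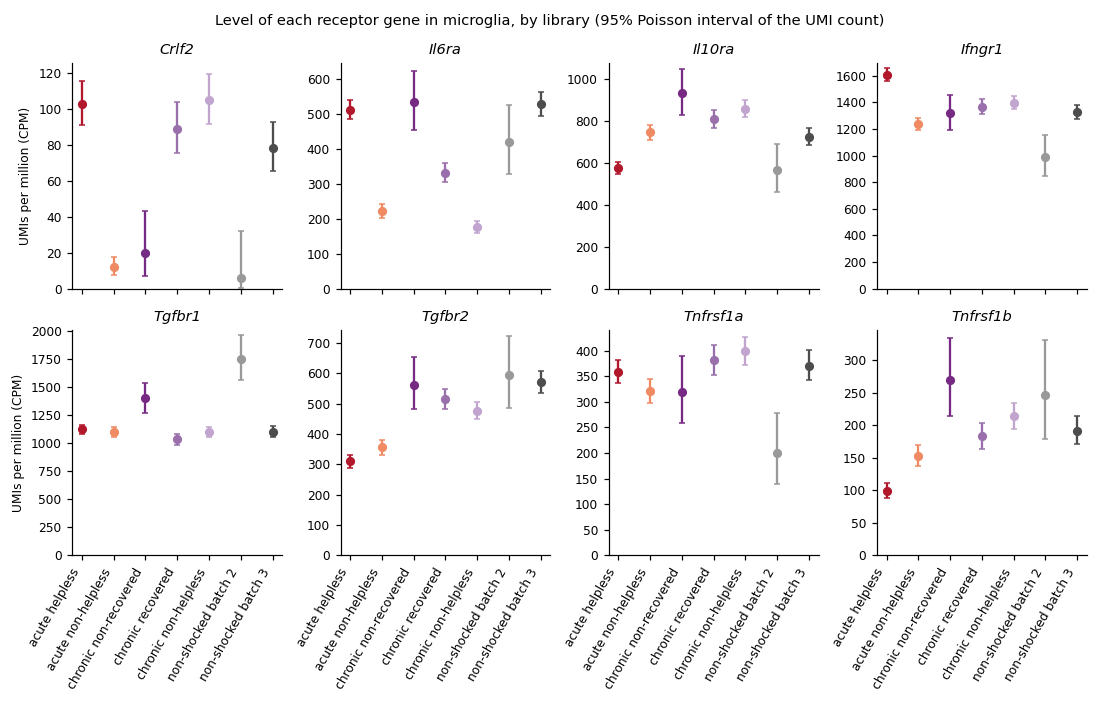
Level of each of the 8 receptor genes in microglia, in CPM (vertical axis, from 0), in the acute, chronic and non-shocked libraries, with the non-shocked cells split by batch. Points are libraries or batches and bars are exact 95% intervals of counting error. Crlf2 lies between 78.3 and 105 CPM in 4 of them and at 19.7 CPM or less in acute non-helpless, chronic non-recovered and batch 2 non-shocked microglia.

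The partner chain of Crlf2 did not show that division, while its ligand had too few UMIs to be read for it. Il7r had 74.5 CPM in acute helpless and 60.9 CPM in acute non-helpless microglia. It had 102 CPM in chronic non-recovered, 82.2 CPM in recovered and 75.1 CPM in chronic non-helpless microglia, and 97.4 CPM in batch 2 and 58.3 CPM in batch 3 of the non-shocked library. Its highest levels were thus in 2 of the libraries or batches with little Crlf2, and in chronic non-recovered microglia it was 1.75-fold higher (1.13 to 2.64) than in batch 3 non-shocked microglia. Tslp, the ligand gene, had at most 31 UMIs in any library and a highest level of 11.4 CPM, in acute helpless microglia. Batch 2 non-shocked microglia had no Tslp UMI, which allows up to 17.2 CPM.

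After each microglial cell was thinned to 1000 UMIs, Il7r was detected in 3.17% (0.387 to 11.0) of 63 acute helpless cells with Crlf2 and 9.35% (7.08 to 12.05) of 567 without it. In chronic recovered microglia the shares were 3.13% (0.0791 to 16.2) of 32 cells with Crlf2 and 9.61% (6.67 to 13.3) of 333 without it. The corresponding values were 6.52% and 9.13% in chronic non-helpless microglia and 6.45% and 6.70% in batch 3 non-shocked microglia, the cells with Crlf2 given first. All 4 pairs of intervals overlapped. At 2000 UMIs per cell the intervals overlapped too, while the share with Il7r was higher among cells with Crlf2 in 3 of the 4 sets, so no direction was read from it.

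Il6ra lies on chromosome 3 at 89864059 to 89913196 on the minus strand, where it overlaps the antisense gene Gm42809. The sources used here do not give whether the authors' counting used strand. Il6ra encodes the chain that binds interleukin 6, and the signal passes through gp130, the product of Il6st. Il6ra had 511 CPM (484 to 538) in acute helpless and 221 CPM (202 to 241) in acute non-helpless microglia. It had 533 CPM (454 to 622) in chronic non-recovered, 330 CPM (304 to 358) in recovered and 176 CPM (159 to 195) in chronic non-helpless microglia. In non-shocked microglia it had 418 CPM (328 to 526) in batch 2 and 527 CPM (493 to 562) in batch 3. From high to low, chronic non-recovered, batch 3 non-shocked, acute helpless and batch 2 non-shocked microglia each overlapped the next, recovered microglia overlapped batch 2 alone, and the non-helpless libraries of both paradigms were lowest, apart from the others and from each other.

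Il6ra was 2.31-fold higher (2.09 to 2.57) in helpless than in non-helpless microglia of the acute paradigm. In the chronic paradigm it was 3.03-fold higher (2.50 to 3.65) in non-recovered than in non-helpless microglia, 1.61-fold higher (1.35 to 1.93) in non-recovered than in recovered microglia and 1.88-fold higher (1.64 to 2.14) in recovered than in non-helpless microglia. Among microglia with at least 2.5% ribosomal protein UMIs, the ratio of Il6ra in non-recovered to recovered microglia was 1.30-fold, short of 1.5-fold. Helpless and non-recovered microglia were thus above non-helpless microglia in both paradigms. Set against the non-shocked cells, Il6ra was 1.89-fold lower (1.46 to 2.42) in acute non-helpless, 2.99-fold lower (2.65 to 3.39) in chronic non-helpless and 1.60-fold lower (1.44 to 1.78) in recovered microglia. It stood at 0.989-fold in acute helpless and 1.01-fold (0.851 to 1.20) in chronic non-recovered microglia. In the acute paradigm Il6ra had a UMI in 84.6% of helpless and 53.3% of non-helpless microglia, and in 74.7% of chronic non-recovered, 71.5% of recovered and 51.3% of chronic non-helpless microglia, beside 39.0% in batch 2 and 81.1% in batch 3 of the non-shocked cells.

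The other genes of that pathway followed other orders. Il6st had 133 CPM in acute helpless and 171 CPM in acute non-helpless microglia, 303 CPM in chronic non-recovered, 169 CPM in recovered and 194 CPM in chronic non-helpless microglia, and 350 CPM in batch 2 and 249 CPM in batch 3 of the non-shocked library. It was 1.95-fold lower (1.69 to 2.24) in acute helpless than in non-shocked microglia, where Il6ra stood at 0.989-fold, and 1.80-fold higher (1.40 to 2.28) in non-recovered than in recovered microglia. Il6 itself was near the limit of detection, at 12.2 to 19.7 CPM in the 5 shocked libraries and with no UMI in batch 2 non-shocked microglia, the 19.7 CPM of the non-recovered library resting on 6 UMIs. In cells thinned to 1000 UMIs, Il6st was detected in 28.3% (21.7 to 35.7) of 173 batch 3 non-shocked microglia with Il6ra and 21.6% (16.5 to 27.5) of 231 without it, and these intervals overlapped, as they did in every other library.

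Il10ra and Ifngr1 are class II receptor chains. Il10ra, on chromosome 9 at 45253837 to 45269149, binds interleukin 10, a cytokine that restrains macrophages, and the annotated genes Gm20612 and Mir7086 overlap it. It had 576 CPM (547 to 605) in acute helpless and 746 CPM (711 to 782) in acute non-helpless microglia. It had 931 CPM (826 to 1046) in chronic non-recovered, 807 CPM (765 to 851) in recovered and 858 CPM (819 to 898) in chronic non-helpless microglia, and 567.5 CPM (461 to 691) in batch 2 and 724 CPM (684 to 766) in batch 3 of the non-shocked library. The chronic libraries overlapped one another and lay highest, although recovered microglia also overlapped acute non-helpless and batch 3 non-shocked microglia. No ratio reached 1.5-fold, and the lowest was 0.772-fold (0.720 to 0.827) in acute helpless over acute non-helpless microglia. Il10rb, the shared signalling chain, kept between 155 and 230 CPM, and Il10 had 0 UMIs in all microglia, although Il10ra had a UMI in 84.4% or more of the microglia of each shocked library. A count of 0 allows up to 1.11 CPM of Il10 in acute helpless microglia and up to 9.87 CPM in chronic non-recovered microglia.

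Ifngr1, on chromosome 10 at 19591949 to 19610229, encodes the chain that binds interferon gamma, and Ifngr2 its signalling partner. Ifngr1 had 1605 CPM in acute helpless and 1237 CPM in acute non-helpless microglia. It had 1316 CPM in chronic non-recovered, 1365 CPM in recovered and 1396 CPM in chronic non-helpless microglia, beside 992 CPM in batch 2 and 1325.5 CPM in batch 3 of the non-shocked cells. Its range over the 6 libraries was 1.30-fold, and its ratios lay between 0.943-fold and 1.30-fold. Ifngr2 spread further, with 307 CPM in acute helpless and 165 CPM in acute non-helpless microglia, 322 CPM in chronic non-recovered, 298 CPM in recovered and 132 CPM in chronic non-helpless microglia, and 298 CPM in batch 2 and 334 CPM in batch 3 of the non-shocked library. Both non-helpless libraries were low in Ifngr2. It was 1.87-fold higher (1.65 to 2.12) in acute helpless than in acute non-helpless microglia and 2.44-fold higher (1.92 to 3.08) in non-recovered than in chronic non-helpless microglia. Ifng had 4 UMIs in acute non-helpless microglia and 0 in the others.

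Tgfbr1, on chromosome 4 at 47353222 to 47414931, encodes the type I kinase that phosphorylates SMAD proteins once the type II receptor, encoded by Tgfbr2, has bound TGF-beta. Tgfbr1 had 1125 CPM (1086 to 1166) in acute helpless and 1102 CPM (1059 to 1146) in acute non-helpless microglia. It had 1398 CPM (1268 to 1538) in chronic non-recovered, 1034 CPM (987 to 1083) in recovered and 1097 CPM (1053 to 1143) in chronic non-helpless microglia, and 1754 CPM (1563 to 1962) in batch 2 and 1101 CPM (1052 to 1152) in batch 3 of the non-shocked library. The 2 sets above the rest, without overlap, were those with the largest shares of cells poor in ribosomal protein UMIs. Against batch 2 non-shocked microglia, Tgfbr1 of acute non-helpless microglia was 1.59-fold lower (1.41 to 1.79), and against batch 3 it stood level, since batch 2 itself was 1.59-fold above batch 3.

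Tgfbr2 lies on chromosome 9 at 116084293 to 116175360. It had 310 CPM (289 to 331) in acute helpless and 356 CPM (332 to 382) in acute non-helpless microglia, 563 CPM (481 to 654) in chronic non-recovered, 515 CPM (482 to 550) in recovered and 477 CPM (448 to 507) in chronic non-helpless microglia, and 596 CPM (487 to 722) in batch 2 and 571 CPM (536 to 608) in batch 3 of the non-shocked library. The acute libraries were lowest and overlapped none of the others. Tgfbr2 was 1.85-fold lower (1.69 to 2.03) in acute helpless microglia than in all non-shocked microglia, whose level was 573 CPM, and acute non-helpless microglia were 1.67-fold (1.35 to 2.05) below batch 2 non-shocked microglia. Unlike Crlf2 and Tgfbr1, it differed little between the non-shocked batches.

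The ligand and the feedback gene of this pathway varied more than its receptors. Tgfb1 had 664 CPM in acute helpless and 316 CPM in acute non-helpless microglia, 691 CPM in chronic non-recovered, 635 CPM in recovered and 250 CPM in chronic non-helpless microglia, and 493 CPM in batch 2 and 733 CPM in batch 3 of the non-shocked library. It was 2.10-fold higher (1.92 to 2.29) in acute helpless than in acute non-helpless microglia, 2.77-fold higher (2.35 to 3.25) in non-recovered and 2.54-fold higher (2.29 to 2.83) in recovered than in chronic non-helpless microglia. Smad7, a SMAD protein that inhibits the receptor, had 140 CPM in acute helpless and 55.1 CPM in acute non-helpless microglia, 224 CPM in chronic non-recovered, 44.6 CPM in recovered and 48.3 CPM in chronic non-helpless microglia, and 80.3 CPM in batch 2 and 190 CPM in batch 3 of the non-shocked library. In non-recovered microglia it was 5.02-fold higher (3.57 to 7.04) than in recovered microglia. Tgfb2 had at most 3 UMIs and the coreceptor gene Tgfbr3 at most 2 in any library, and Tgfb3 had none.

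Tnfrsf1a and Tnfrsf1b encode TNFR1, the death-domain receptor found on most cells, and TNFR2, which has no death domain and is found mainly on immune and endothelial cells. Tnfrsf1a, on chromosome 6 at 125349362 to 125362484, had 358 CPM (336 to 381) in acute helpless and 321 CPM (298 to 345) in acute non-helpless microglia. It had 319 CPM (259 to 389) in chronic non-recovered, 382 CPM (353 to 412) in recovered and 399 CPM (372 to 427) in chronic non-helpless microglia, and 201 CPM (140 to 279) in batch 2 and 371 CPM (342 to 401) in batch 3 of the non-shocked library. Batch 2 of the non-shocked cells was lowest, overlapping chronic non-recovered microglia alone and 1.85-fold (1.31 to 2.68) below batch 3, and the 1.60-fold higher level (1.14 to 2.32) of acute non-helpless microglia was relative to batch 2.

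Tnfrsf1b, on chromosome 4 at 145213463 to 145246870, had its lowest level in the acute libraries, with 99.6 CPM (88.1 to 112) in helpless and 153 CPM (138 to 170) in non-helpless microglia. It had 270 CPM (215 to 335) in chronic non-recovered, 183 CPM (163 to 204) in recovered and 214 CPM (195 to 235) in chronic non-helpless microglia, and 246 CPM (178 to 332) in batch 2 and 192 CPM (172 to 214) in batch 3 of the non-shocked library. Acute helpless microglia overlapped no other set. Tnfrsf1b was 1.54-fold lower (1.31 to 1.81) in acute helpless than in acute non-helpless microglia, 1.98-fold lower (1.69 to 2.32) than in all non-shocked microglia, and acute non-helpless microglia were 1.61-fold (1.14 to 2.21) below batch 2 non-shocked microglia. With other scalings and cell filters, acute helpless microglia were 1.13-fold to 1.81-fold below acute non-helpless microglia, so that ratio was not always past 1.5-fold. The ratio of non-recovered to recovered microglia was 1.47-fold, below the limit of 1.5.

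The ligands of these receptors were scarce in the same cells. Tnf stood between 4.43 CPM in acute helpless and 15.9 CPM in batch 3 non-shocked microglia, and Lta had 1 UMI in all. Tnfrsf11a, which encodes RANK, a receptor of the same family, had 63.1 CPM in acute helpless and 24.3 CPM in acute non-helpless microglia, 112 CPM in chronic non-recovered, 21.4 CPM in recovered and 21.6 CPM in chronic non-helpless microglia, and 68.8 CPM in batch 2 and 74.2 CPM in batch 3 of the non-shocked library. It was 5.22-fold higher (3.18 to 8.55) in non-recovered than in recovered microglia, from 34 and 37 UMIs.

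**Figure D2:**
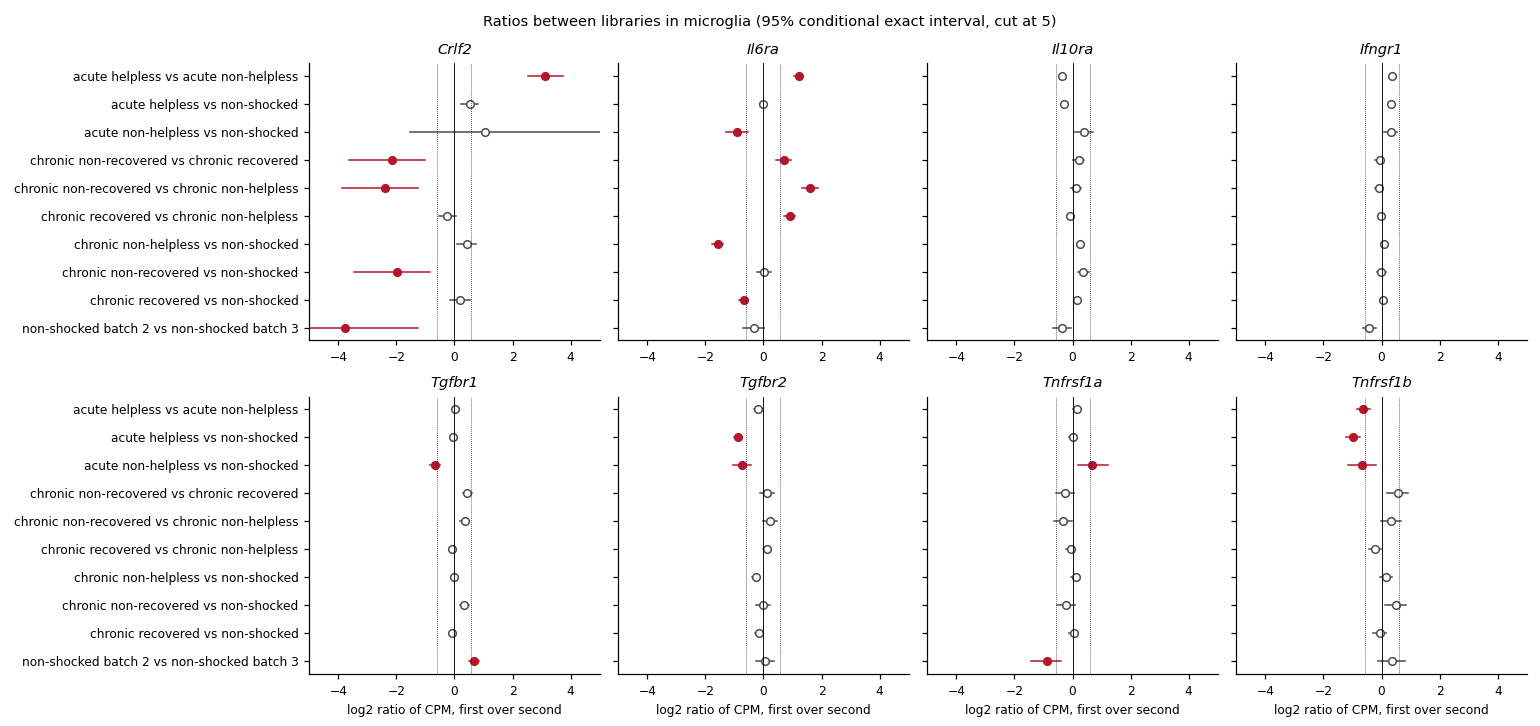
Log2 ratio of each receptor gene in microglia (horizontal axis, above 0 is higher in the first-named library) for the 9 comparisons and for batch 2 over batch 3 of the non-shocked cells. Points are ratios, bars exact 95% intervals of counting error, dotted lines 1.5-fold in either direction, and filled points are ratios past it. Il6ra is past it in 7 comparisons and Crlf2 in 4, while Il10ra and Ifngr1 are past it in none.

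Over the 9 comparisons, which share libraries, 18 of 72 ratios of the 8 genes were 1.5-fold or more apart where the higher library had 20 CPM and 30 UMIs or more, 6 of them higher and 12 lower. Because the genes were chosen with these levels in view, the following counts are set beside those of all genes and nothing is read from them. Over acute non-helpless microglia, acute helpless microglia had 2 of the 8 genes higher, Crlf2 and Il6ra, and 1 lower, Tnfrsf1b, against 8.89% higher and 9.28% lower (18.2% in all) of 6907 genes. The median log2 ratio was 0.09 over the 8 and -0.06 over all genes. Over non-shocked microglia, acute helpless microglia had 0 higher and 2 lower, Tgfbr2 and Tnfrsf1b, against 7.62% and 24.2% (31.8% in all), with medians of -0.03 and -0.16. Acute non-helpless over batch 2 non-shocked microglia had 1 higher and 4 lower of the 7 genes that passed the minima, against 43.0% and 10.4% (53.4% in all), with a median of -0.67 over these 7 beside 0.46 over all genes. Crlf2 was the gene that did not pass, and the ratios of that comparison stand beside this positive median of all genes.

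In the chronic paradigm, non-recovered over recovered microglia had Il6ra higher and Crlf2 lower, against 10.7% higher and 21.8% lower (32.5% in all) of genes. The same pair of genes was apart in non-recovered over non-helpless microglia, against 9.33% and 21.2% (30.5% in all). In both, the median log2 ratio of all genes was negative, at -0.22 and -0.23, and that of the 8 was 0.17 and 0.18. Recovered over non-helpless microglia had Il6ra higher and none of the 8 lower, against 4.04% and 3.2% (7.25% in all), with medians of -0.07 and -0.04. Over batch 3 non-shocked microglia, chronic non-helpless microglia had Il6ra alone lower, against 3.73% higher and 13.3% lower (17.1% in all). Non-recovered microglia had Crlf2 alone lower, against 5.63% and 17.6% (23.3% in all), and recovered microglia Il6ra alone lower, against 3.58% and 12.9% (16.4% in all). Batch 2 over batch 3 of the non-shocked cells, which no group label parts, had Tgfbr1 higher and Crlf2 and Tnfrsf1a lower, against 6.31% and 41.0% (47.3% in all), with medians of -0.34 and -0.45.

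A list of 84 further cytokine receptor, ligand and signalling genes was counted by the same limits. In acute helpless over acute non-helpless microglia 46 could be measured, of which 8 were higher and 4 lower, against 8.89% and 9.28% of all genes. Besides Tnfrsf11a, Smad7 and Tgfb1, Il13ra1, a chain of the interleukin 13 receptor, had 60.5 CPM in helpless and 117 CPM in non-helpless microglia, 1.94-fold lower (1.59 to 2.37). In acute helpless against non-shocked microglia 0 of 50 were higher and 22 were lower, against 7.62% and 24.2% of all genes, with a median log2 ratio of -0.41 beside -0.16 over all genes. The lower ones included Il17ra, a receptor of interleukin 17, with 54.6 CPM in acute helpless and 174 CPM in non-shocked microglia, and Tnfrsf21, the death receptor DR6, with 100.3 CPM and 286 CPM. The kinase gene Tyk2 and the transcription factor gene Stat5a were 3.16-fold (2.13 to 4.77) and 3.88-fold (2.34 to 6.65) lower. These libraries differed in batch as well as in group. In acute non-helpless against batch 2 non-shocked microglia 3 of 22 were higher and 7 lower, against 43.0% and 10.4% of all genes, with Bmpr2, Ski, Il6st and Csf3r 1.97-fold to 2.93-fold lower.

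In non-recovered over recovered microglia 6 of 36 were higher and 2 lower, against 10.7% and 21.8% of all genes. Over chronic non-helpless microglia 8 of 36 were higher and 2 lower, against 9.33% and 21.2%. Il17ra was among the higher ones in both, with 191 CPM in non-recovered, 109 CPM in recovered and 57.2 CPM in chronic non-helpless microglia. In recovered over chronic non-helpless microglia 4 of 47 were higher and 0 lower, against 4.04% and 3.2%, the higher ones being Tgfb1, Ifngr2, Il17ra and the kinase gene Ripk1. Against batch 3 non-shocked microglia, chronic non-helpless microglia had 0 of 49 higher and 9 lower, against 3.73% and 13.3% of all genes. Non-recovered microglia had 2 of 39 higher and 2 lower, against 5.63% and 17.6%, and recovered microglia 1 of 49 higher and 8 lower, against 3.58% and 12.9%. Stat5a and the activin receptor gene Acvr1b were 1.82-fold (1.12 to 2.99) and 1.80-fold (1.04 to 3.19) lower in recovered microglia. Between the non-shocked batches 2 of 34 were higher and 6 lower in batch 2, against 6.31% and 41.0%. Ski was 2.02-fold higher, while Il21r and Tnfrsf21 were 1.73-fold and 1.67-fold lower. Il23r, Osmr, Il10 and Tgfb3 had no UMI in any microglial cell.

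The authors' clusters divide the microglia in part by library, so that clusters 1, 2, 3 and 6 could be compared between some libraries and clusters 4 and 5 could not in these comparisons. Within clusters 1, 2 and 3, Crlf2 was 10.5-fold (148 against 11 UMIs), 10.7-fold (80 against 5) and 11.5-fold (50 against 2) higher in acute helpless than in acute non-helpless microglia. Il6ra was 2.40-fold, 2.25-fold and 1.68-fold higher in the same clusters. Each of the shared clusters thus held the acute difference of both genes. In cluster 1, Crlf2 was 4.26-fold lower in chronic non-recovered (5 UMIs) than in chronic non-helpless microglia (62 UMIs), and Il6ra was 2.64-fold higher. In cluster 6, Crlf2 had 1 UMI in non-recovered and 13 in recovered microglia, and Il6ra was 1.41-fold higher, short of 1.5-fold. In cluster 2, Il6ra was 1.97-fold higher in recovered than in chronic non-helpless microglia.

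Clusters 3 and 6 were poor in ribosomal protein UMIs, with a median between 0.904% and 1.72% in each library, against 4.69% to 8.13% in the others. Tgfbr1 had between 1611 and 1936.5 CPM in clusters 3 and 6 and between 733 and 1185 CPM in the other clusters, with no overlap. Because the clusters were built from these cells and genes, this is a description. Taken within libraries and by the ribosomal share alone, Tgfbr1 was higher in the microglia under 2.5% than in the rest in 7 of 7 libraries or batches, by 1.47-fold to 2.67-fold. In acute helpless microglia it had 2729 CPM in the poor cells and 1024 CPM in the rest. Il6ra was also higher in 7 of 7, by a median of 1.75-fold and at most 2.51-fold, with an interval above 1 in 6 of them. It had 396 CPM in the poor cells and 158 CPM in the rest of chronic non-helpless microglia.

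The other receptors were not alike in this. Tnfrsf1b was higher in the poor cells in 7 of 7, by a median of 1.40-fold, but with an interval above 1 in 3 of them. Tgfbr2 and Il10ra were higher in 6 of 7, by medians of 1.79-fold and 1.69-fold, with batch 2 of the non-shocked cells the exception in both. Their intervals lay above 1 in 5 and 6 of the 7. Tnfrsf1a was lower in the poor cells in 6 of 7, by a median ratio of 0.643-fold, with an interval below 1 in 4 of them. In acute helpless microglia, for example, it had 235 CPM against 366 CPM. Ifngr1 was higher in 3 and lower in 4. Crlf2 was higher in 4 of the 6 sets with UMIs on both sides and lower in acute non-helpless and chronic non-recovered microglia, where the poor cells had 1 UMI each. The poor cells were also shallower, with medians of 786.5 to 2239 UMIs against 1287 to 4791 in the rest, and the part of depth in these ratios was not tested. Between the non-shocked batches, of which batch 2 had more poor cells, Tgfbr1 was higher and Tnfrsf1a lower in batch 2, as in poor cells. Il6ra and Il10ra were higher in the poor cells of 7 and 6 sets. In batch 2 over batch 3 they stood at 0.794-fold (0.617 to 1.01), an interval that includes 1, and 0.784-fold (0.632 to 0.963).

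**Figure D3:**
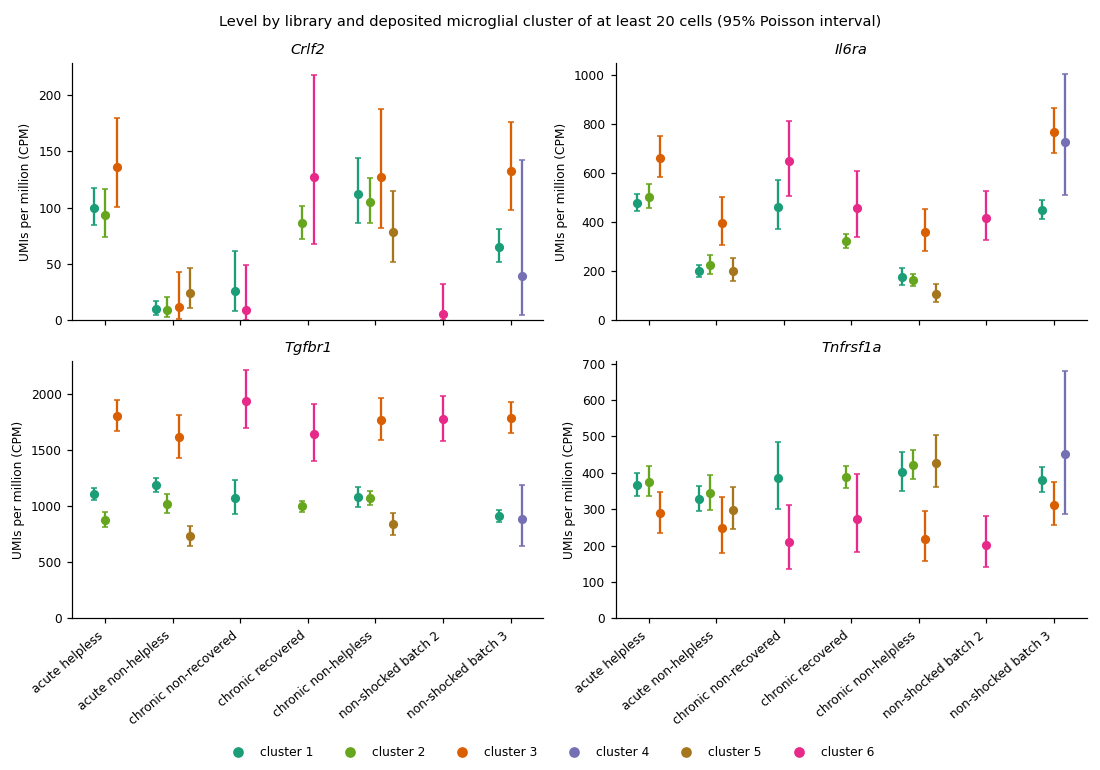
Levels of Crlf2, Il6ra, Tgfbr1 and Tnfrsf1a in microglia, in CPM (vertical axis), by library and by the authors' cluster number where a library had at least 20 cells of it. Points are levels and bars exact 95% intervals of counting error. Crlf2 parts acute helpless from acute non-helpless microglia within clusters 1, 2 and 3, whereas Tgfbr1 is highest in clusters 3 and 6, at 1611 CPM or more.

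Shares of cells with a UMI depend on depth, and median depth lay between 905 and 4579.5 UMIs. Thinning to 1000 UMIs left out 67 of the 123 batch 2 non-shocked microglia, 25 of batch 3, 11 chronic non-recovered, 7 recovered, 4 chronic non-helpless and 7 acute non-helpless cells, and no acute helpless cell. At that depth Crlf2 was found, in the acute paradigm, in 10.0% of helpless and 0.890% of non-helpless microglia. It was found in 2.27% of chronic non-recovered, 8.77% of recovered and 9.29% of chronic non-helpless microglia, and in 1.79% of batch 2 and 7.67% of batch 3 non-shocked microglia. The value of batch 2 is that of 1 cell. At equal depth the 3 lower shares were again those of acute non-helpless, chronic non-recovered and batch 2 non-shocked microglia. The interval of chronic non-recovered microglia reached 7.97% and that of batch 2 reached 9.55%, however, above the share of batch 3, so at this depth only acute non-helpless microglia, with an interval up to 2.06%, stood apart from the higher sets.

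Il6ra kept its order of shocked libraries at equal depth, with 44.4% in acute helpless and 21.4% in acute non-helpless microglia, and 37.5% in chronic non-recovered, 30.7% in recovered and 19.0% in chronic non-helpless microglia. The interval of chronic non-recovered microglia (27.4 to 48.5) overlapped those of acute helpless (40.5 to 48.4) and recovered microglia (26.0 to 35.7). The intervals of acute and chronic non-helpless microglia overlapped too. It was found in 35.7% of batch 2 and 42.8% of batch 3 non-shocked microglia, where the unthinned shares of 39.0% and 81.1% had differed far more. In the acute paradigm Tnfrsf1b was found in 9.05% of helpless and 16.2% of non-helpless microglia, against 17.2% to 22.7% of the other sets. Tgfbr2 was found there in 28.4% of helpless and 30.6% of non-helpless microglia, against 40.4% to 47.7% of the others. Ifngr1 was the most widely found of the 8 in acute helpless microglia, at 79.2%, and Tgfbr1 in batch 2 non-shocked microglia, at 76.8%.

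**Figure D4:**
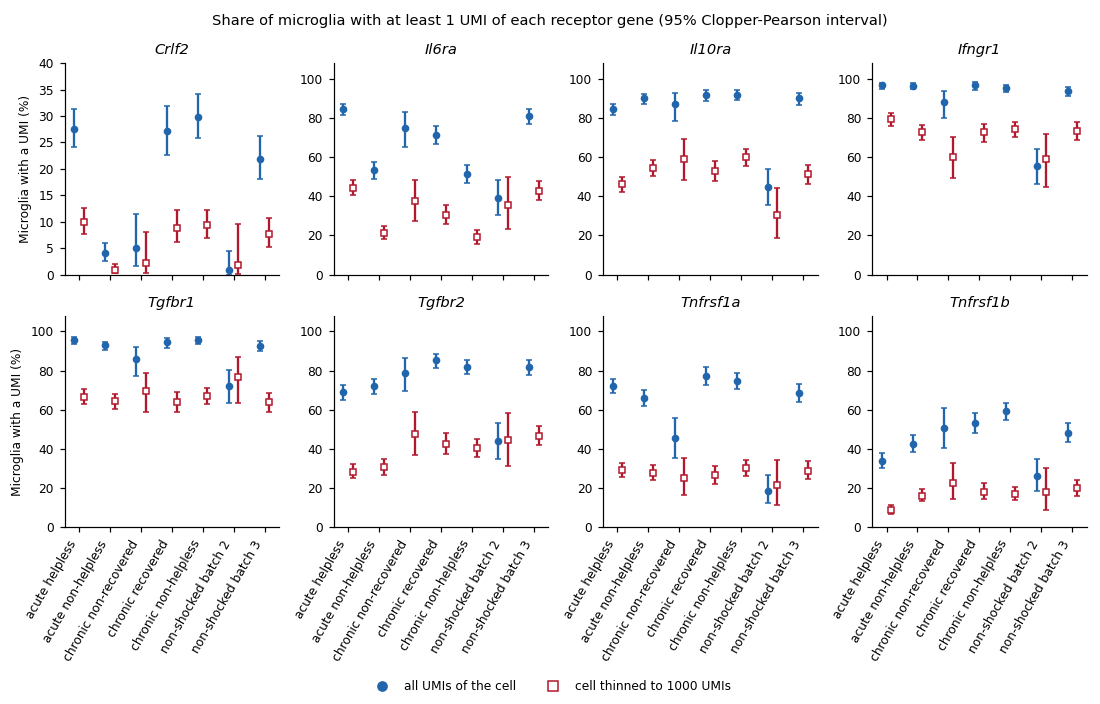
Percentage of microglia with at least 1 UMI of each receptor gene (vertical axis; the Crlf2 panel has a shorter scale) in each library and non-shocked batch, counted over all UMIs (circles) and after thinning each cell to 1000 UMIs (squares). Bars are exact 95% intervals of counting error. At equal depth Crlf2 is found in 0.890% of acute non-helpless microglia and 10.0% of acute helpless microglia.

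Outside the microglia, cells were too few to compare most libraries, so levels are given over all libraries. The authors' T cells fell into 118 barcodes with at least 0.5% of UMIs in microglial markers and 43 without. P2ry12, a microglial gene that T cells should lack, had a UMI in 98.3% of the 118 and 23.3% of the 43, whose median depth was 5190 UMIs, beside 87.0% to 99.1% of microglia. In the 43 barcodes Crlf2 had 85.9 CPM (53.2 to 131) from 21 UMIs, against 74.5 CPM (69.5 to 79.8) in microglia. That microglial level pools libraries from 11.9 to 105 CPM, and the cell types do not hold the libraries in equal parts. Il7r had 413 CPM in the 43 and 163 CPM in the 118, so the T cell barcodes were richer in the partner chain than any microglial library. The other receptors were lower in the 43 than in microglia, Il6ra with 45.0 CPM against 360 CPM, Tgfbr1 with 49.1 CPM against 1114.5 CPM and Il10ra with 45.0 CPM against 734 CPM. The 118 barcodes lay between, with 234 CPM of Il6ra and 706 CPM of Tgfbr1.

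Crlf2 was found at 152 CPM in 25 macrophages, 105 CPM in 42 monocytes, 80.2 CPM in 39 natural killer cells and 68.0 CPM in 17 B cells, the last from 6 UMIs. The other 7 genes were lower in B cells than in microglia, with Ifngr1 at 113 CPM against 1390 CPM and no UMI of Tnfrsf1a, which allows up to 34.0 CPM. Microglial RNA was common in these barcodes as well. By the same limit of 0.5% it was held by 10 of the 25 macrophages, 27 of the 42 monocytes, 20 of the 39 natural killer cells and none of the B cells. In the 15 monocytes without it Il10ra had 241 CPM (160 to 348), against 497 CPM in all 42, and Tgfbr1 had 60.1 CPM (24.2 to 124), against 474 CPM. In the 19 natural killer cells without it Ifngr1 had 1093 CPM (887 to 1334), close to the 1043 CPM in all 39, while Tgfbr1 had 22.5 CPM from 2 UMIs. Crlf2 had 120 CPM (65.8 to 202) in these monocytes, 124 CPM (61.9 to 222) in these natural killer cells and 90.7 CPM (24.7 to 232) in the 15 macrophages without microglial RNA, against 98.6, 62.8 and 230 CPM in those with it, with overlapping intervals in each type. This division of the cells was chosen after seeing the data. P2ry12 still had a UMI in 13.3%, 5.26% and 13.3% of them, at median depths of 6333, 4259 and 2924 UMIs. Only T cells reached 20 cells in more than 1 library. Their Crlf2, over all T cell barcodes of a library, was 60.5 CPM in acute helpless, 83.7 CPM in recovered and 106 CPM in chronic non-helpless mice. Microglia of the same libraries had 103, 88.6 and 105 CPM.

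**Figure D5:**
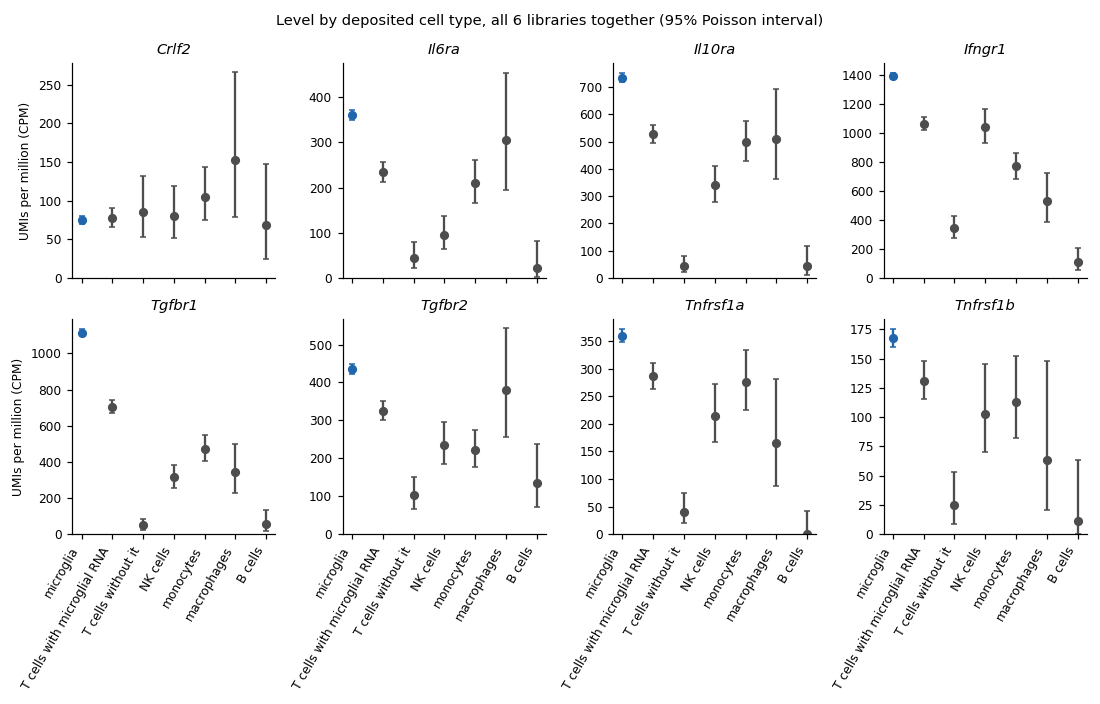
Level of each receptor gene, in CPM (vertical axis), in the authors' cell types over all libraries, with T cells split by the share of microglial marker UMIs in the barcode. Points are levels and bars exact 95% intervals of counting error. Crlf2 lies between 68.0 and 152 CPM in all of them, while Tgfbr1 is at 1114.5 CPM in microglia and 49.1 CPM in T cells without microglial RNA.

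Among the genes whose levels followed Crlf2 most closely over the 6 libraries, with batch 3 for the non-shocked cells, were Anxa3 (Pearson r of 0.985), Gga2 (0.934), Fam219b (0.925) and Qdpr (0.917), of 2204 genes compared. The points share libraries, batches and depth, and the ranking has no test. Anxa3, which encodes an annexin, had 547 CPM in acute helpless and 194 CPM in acute non-helpless microglia, 276 CPM in chronic non-recovered, 543 CPM in recovered and 550 CPM in chronic non-helpless microglia, and 120 CPM in batch 2 and 577 CPM in batch 3 of the non-shocked library. Batch 2, which the ranking did not use, was lowest in Anxa3, as in Crlf2. Gga2, Fam219b and Qdpr had 22.9, 28.7 and 40.1 CPM in batch 2, above their levels in acute non-helpless and chronic non-recovered microglia. In batch 2, however, 1 UMI is 5.73 CPM, so these levels rest on few UMIs. Whether these genes followed Crlf2 there cannot be told. For Il6ra, the member with the next widest range, the closest included Plbd2 (0.996), Dpm1 (0.993), Lrp10 (0.993) and Ptpn11 (0.990).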

How the data were processed

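Per the file headers and values, the deposited matrices hold raw counts of UMIs per gene and cell, and the deposited metadata give each cell's library, batch, cluster and cell type. The submitters' processing notes name Cell Ranger 2.2.0, Seurat 2.3.4 and the build mm10. Cell filtering, clustering and typing by the authors, the meaning of a batch and the strand setting of counting are not given in the sources used here. Normalized matrices were deposited too and not used here.

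UMIs were summed per library over the authors' microglia, other cell types or clusters and divided by that sum, as CPM. Levels have exact Poisson, shares Clopper-Pearson and ratios conditional exact 95% intervals, which cover counting error only. A gene was past the fold at 1.5-fold or more where the higher library had 20 CPM and 30 UMIs or more, and a count of 0 allows up to 3. Of the non-shocked cells, those of the batch shared with the other library were taken, and all for the acute helpless library, whose batch holds no other. With 1 library per group there was no test and no paired fit.

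The 8 genes and all lists were chosen with earlier results of these data known. Named besides the 8 were partner chains and ligands, up to 4 list genes per comparison past the fold with an interval excluding 1, and the 5 genes most alike in log2(CPM + 2), of which some are not reported here. Scrublet called 56 cells as doublets, 50 of them microglia, and these were kept in the main analysis. The alternatives were other scalings and cell filters, of which 4 were chosen after seeing the data. The ratio calculation was tested on simulated data. Python 3.11.15, NumPy 2.4.6, SciPy 1.17.1, pandas 2.3.3 and scanpy 1.11.5 were used. Promoter sequences came from the RefSeq table and gene positions from GENCODE M21, both on the coordinates of mm10.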

Additional observations from a re-analysis of the deposited data

Results flagged for a closer look

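Crlf2 differed between helpless and non-helpless microglia in opposite directions in the acute and the chronic paradigm. Its log2 ratio was 3.11 in acute helpless over acute non-helpless microglia and -2.41 in chronic non-recovered over chronic non-helpless microglia, an acute ratio larger than the chronic one by 5.51. Each group had 1 library, so this difference was not tested. The acute helpless and acute non-helpless libraries came from different batches, while the chronic libraries shared 1 batch, and the non-recovered value rests on 6 UMIs.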

How the results depend on the processing

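The batch of the non-shocked cells moved the most values. Against batch 2 alone the log2 ratio of Crlf2 was 4.16 in acute helpless, 4.19 in chronic non-helpless, 1.78 in chronic non-recovered (the other direction) and 3.95 in recovered microglia, all resting on 1 UMI in batch 2. For acute non-helpless microglia, Crlf2 stood at -2.59 against all non-shocked microglia and -2.72 against batch 3 (both the other direction), while cells thinned to 1000 UMIs had 8.90 CPM and 17.9 CPM in batch 2 (5 UMIs against 1, the other direction too). Tgfbr1 stood at 0.00061 against batch 3 and Tnfrsf1a at -0.14 and -0.21 (all the other direction). Among microglia with no Dlgap1 or Qpct UMI, the acute ratio of Crlf2 was 2.52, against 3.11 in all microglia. In these cells Crlf2 of non-recovered microglia was 2.95-fold below recovered and 3.03-fold below chronic non-helpless microglia, against 4.49-fold and 5.30-fold in all. The log2 ratio to non-shocked microglia was -1.18, against -1.99. These values rest on 4 Crlf2 UMIs in 50 non-recovered cells, and the acute ratio on 4 in 84 acute non-helpless cells. Of the 8 genes, 6 were past the fold in acute helpless against batch 2 non-shocked microglia. In acute non-helpless against non-shocked microglia 3 were past it with median-of-ratios scaling, thinned cells, cells of at least 1000 UMIs or cells of at least 2.5% ribosomal UMIs, and 2 against all or batch 3 non-shocked cells. In non-recovered against recovered microglia the count was 1 with median-of-ratios scaling or ribosome-rich cells and 4 with cells weighted equally. Against batch 2, the counts were 5 for chronic non-helpless, 3 for non-recovered and 3 for recovered microglia. With ribosome-rich cells they were 2, 2 and 0 against batch 3, and non-recovered microglia gave 3 without Dlgap1 or Qpct UMIs. Causes were not tested. No paired analysis was possible because each group had 1 library. Depth limited Crlf2 most in chronic non-recovered and batch 2 non-shocked microglia, with 6 UMIs and 1 UMI. Genes with 0 UMIs in a library under an alternative had no value there.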

Other observations

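Several values on Crlf2 were looked up after its levels had been seen. The genes Dlgap1 and Qpct, on chromosome 17, were found in 49.7% and 72.2% of acute non-helpless microglia, against 0% and 2.22% of acute helpless microglia. In the chronic paradigm they were found in 28.3% and 36.4% of non-recovered and 8.60% and 15.9% of recovered microglia, against 0% and 1.00% of non-helpless microglia, and batch 2 of the non-shocked cells had 22.8% and 26.0%, against 0% and 0.699% in batch 3. The 3 sets with low Crlf2 were thus those with the largest shares.

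The same opposite pattern was present inside 1 library. In recovered microglia, Crlf2 had 40.3 CPM (15 UMIs) in 70 cells with a Dlgap1 or Qpct UMI and 102 CPM (138 UMIs) in 302 cells without one, 2.52-fold lower (1.48 to 4.63), at median depths of 4758.5 and 4521.5 UMIs. Anxa3 had 409 CPM in these 70 cells and 580 CPM in the others, and Il6ra had 368 CPM and 320 CPM. In the other libraries divided this way the intervals of the Anxa3 ratio included 1. Anxa3 had 198 CPM in acute non-helpless cells with such a UMI and 153 CPM in those without, 1.29-fold (0.910 to 1.89). Non-recovered cells had 282 CPM and 268 CPM, 1.05-fold (0.664 to 1.70). In acute non-helpless microglia Crlf2 had 11.2 CPM (23 UMIs) in 485 cells with such a UMI and 18.0 CPM (4 UMIs) in 84 without. In non-recovered microglia the values were 10.6 CPM (2 UMIs) in 49 cells with and 34.5 CPM (4 UMIs) in 50 without. Both of these Crlf2 ratios had intervals that included 1, at 0.624-fold (0.213 to 2.48) in acute non-helpless and 0.308-fold (0.0279 to 2.15) in non-recovered microglia. A difference in genetic background between mice was not tested as a cause.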
